A study of Mus musculus with 9 samples.

Results

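The genes described here are 50 genes of DNA replication and S phase, read in RNA-seq libraries of mouse megakaryocyte-erythrocyte progenitors (MEPs), the bone marrow cells that give rise to megakaryocytes and red cells. They were taken as the rows of the count table whose gene identifier maps to one of 50 listed symbols, and all 50 were found among 35275 identifiers. The list was drawn up by function, with earlier results of these data known. Counts per library ranged from 11781637 to 15850037, and the lowest count of a member in a library was 55 (Fen1), and 204 in the next lowest gene (Clspn). MEPs (Lin- ckit+ CD34- FcγRII/III low) of C57Bl/6 wild-type mice, matched for age and sex, had been sorted by binding of HS3A8, a single-chain antibody fragment (scFv) that recognizes a pattern of modified heparan sulfate. HS3A8-high MEPs were the upper and HS3A8-low MEPs the lower portion of binding, and control MEPs had been sorted after mock staining with MPB49, an scFv with no heparan sulfate binding, so that the control stands for MEPs not divided by HS3A8. There were 3 libraries of each of the 3 groups, and no group carried a further treatment or genetic change. The study describes the sorted HS3A8-high and HS3A8-low MEPs as coming from individual mice. The labels give no mouse for any library, so that a link between the fractions by mouse is not stated. RNA came from pooled cells of each sort, in which fewer cells of a type and less RNA per cell cannot be told apart. Control replicate 1 stood apart from the other libraries in these genes, and both HS3A8 libraries numbered 3 held high levels of granulocyte and monocyte transcripts. Comparisons of groups that rest on these libraries are also given without them, while levels of single genes keep every library.

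A cell copies its DNA once per division. Origins are licensed in G1, when the origin recognition complex, Cdc6 and Cdt1 load the ring-shaped MCM helicase, and are fired in S phase, when Cdc45 and GINS activate it. Polymerases, primase, the sliding clamp and its loaders then build the new strands, ribonucleotide reductase and other enzymes supply the nucleotides, and histones are deposited behind the fork. Transcription of many of these genes is driven by E2F factors at the boundary between G1 and S phase, and MEPs and early erythroid progenitors are known to divide rapidly.

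Promoter windows are shown first, because shared promoter letters are the feature that the choice of genes did not use. The windows are those of RefSeq on GRCm38.p6, 250 bases before to 50 bases after a transcription start, and 40 of the 50 genes had at least 1. They were searched on both strands for the 8-letter E2F sites TTTCGCGC, TTTGGCGC, TTTCCCGC and TTTGCCGC. A match was found for 15 of the 40 genes (37.5%), against 704 of 27025 genes in the whole promoter table (2.6%). Of 59 other replication genes, 50 had a window and 18 of those held a match (36%), and of 25 mitosis genes, 22 had a window and 1 held a match (4.55%). At least 2 matches in 1 window were held by 5 members, Mcm3, Mcm5, Mcm6, Mcm7 and Rfc3. Their windows are printed 5′ to 3′ on the strand of the gene with the matches in capitals, and the window of Rrm1, the member with the smallest p-value between the HS3A8 fractions, is added as one without a match.
Mcm3 (chr1:20820263-20820562, minus strand): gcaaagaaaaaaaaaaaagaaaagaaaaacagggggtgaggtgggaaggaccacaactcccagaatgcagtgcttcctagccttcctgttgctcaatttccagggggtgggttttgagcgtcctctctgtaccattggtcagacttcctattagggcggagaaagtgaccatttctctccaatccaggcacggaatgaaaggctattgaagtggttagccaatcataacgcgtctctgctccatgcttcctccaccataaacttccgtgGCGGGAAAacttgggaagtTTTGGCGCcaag
Mcm5 (chr8:75109259-75109558, plus strand): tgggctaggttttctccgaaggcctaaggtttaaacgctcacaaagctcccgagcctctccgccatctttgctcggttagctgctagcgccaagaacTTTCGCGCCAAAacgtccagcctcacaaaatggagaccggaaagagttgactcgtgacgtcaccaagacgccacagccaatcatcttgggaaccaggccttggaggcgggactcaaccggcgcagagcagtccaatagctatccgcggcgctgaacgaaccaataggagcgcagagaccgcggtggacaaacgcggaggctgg
Mcm6 (chr1:128359656-128359955, minus strand): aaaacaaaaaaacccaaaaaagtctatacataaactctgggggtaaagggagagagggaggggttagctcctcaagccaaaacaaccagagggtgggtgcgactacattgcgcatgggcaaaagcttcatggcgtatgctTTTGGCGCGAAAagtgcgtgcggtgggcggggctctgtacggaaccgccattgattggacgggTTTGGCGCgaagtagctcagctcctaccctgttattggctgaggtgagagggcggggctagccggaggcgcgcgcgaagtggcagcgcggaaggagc
Mcm7 (chr5:138171834-138172133, minus strand): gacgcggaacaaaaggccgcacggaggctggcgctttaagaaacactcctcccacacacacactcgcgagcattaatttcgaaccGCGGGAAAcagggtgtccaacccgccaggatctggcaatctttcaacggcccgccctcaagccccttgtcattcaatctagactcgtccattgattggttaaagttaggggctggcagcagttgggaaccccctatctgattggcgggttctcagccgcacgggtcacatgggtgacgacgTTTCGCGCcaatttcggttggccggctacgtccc
Rfc3 (chr5:151651159-151651458, minus strand): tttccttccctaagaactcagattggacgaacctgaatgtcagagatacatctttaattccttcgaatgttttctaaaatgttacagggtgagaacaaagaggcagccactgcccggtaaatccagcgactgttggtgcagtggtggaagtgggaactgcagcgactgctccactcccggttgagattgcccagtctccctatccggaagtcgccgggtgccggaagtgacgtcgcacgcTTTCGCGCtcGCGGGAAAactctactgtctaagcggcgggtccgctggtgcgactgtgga
Rrm1 (chr7:102441445-102441744, plus strand): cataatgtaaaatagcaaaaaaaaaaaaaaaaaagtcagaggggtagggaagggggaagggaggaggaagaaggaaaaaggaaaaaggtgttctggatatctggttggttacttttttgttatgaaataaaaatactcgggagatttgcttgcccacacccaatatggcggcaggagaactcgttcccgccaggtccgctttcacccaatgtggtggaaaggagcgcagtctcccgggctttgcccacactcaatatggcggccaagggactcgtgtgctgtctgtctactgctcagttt

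Mcm6, a subunit of the MCM ring, held the most matches, 3, of which 2 overlap on opposite strands, and both matches of Mcm5 overlap in the same way. With the start taken as position 0, the matches of Rfc3, a subunit of the clamp loader, began at -10 and 0. The 10 other members with a match were Cdc6, Cdt1, Orc1, Gins3, Clspn, Lig1, Pola1, Pold1, Pold3 and Pole2, each with 1. Absence of a match says only that these letters are not in these windows.

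Replication genes were abundant in all 9 libraries. Levels of different genes were compared as CPM (read counts relative to library size, scaled by TMM over the 9 libraries) per kb of transcript. The median level of the 50 members was 88.6 CPM per kb, against 10 CPM per kb over 12055 expressed genes with a known transcript length, and 25 members were among the highest 10% of those genes. Mcm6 had the highest level, 374 ± 39.1 CPM per kb (SD over 9 libraries), followed by Pcna, the sliding clamp, with 286 ± 43.2, and by Mcm7, Mcm5 and Mcm2 with 279 ± 35.5, 271 ± 43.1 and 260.1 ± 43.8. These SDs overlap for Pcna, Mcm7, Mcm5 and Mcm2. Control replicate 1 was the highest library of Pcna and the lowest of Mcm7, Mcm5 and Mcm2, so the order of these genes depends on it. The 6 subunits of the ring ran from 145 ± 24.1 CPM per kb (Mcm4) to the value of Mcm6.

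By their means over the 9 libraries, the loading factors stood lower than the subunits of the ring they load. They had 111 ± 12.8 CPM per kb for Cdc6, 104 ± 25.6 for Orc6, 92.9 ± 12.9 for Cdt1 and 16.3 ± 1.81 for Orc1. The SDs of Cdc6 and Orc6 overlap that of Mcm4, the lowest ring subunit. Among the GINS subunits, which bind the ring in a complex of 1 copy each, levels ran from 12.1 ± 1.17 CPM per kb (Gins3) to 74.9 ± 23.6 (Gins4). Catalytic subunits of the polymerases were at 17.0 ± 3.77 (Pola1), 17.3 ± 3.57 (Pole) and 123 ± 11.3 CPM per kb (Pold1). Clspn, which relays checkpoint signals at the fork, had 5.49 ± 1.24 CPM per kb. The lowest was Fen1, the flap endonuclease of Okazaki fragments, with 2.31 ± 0.52 CPM per kb, and 84.2% of its annotated exon length is shared with other genes, as is 67.3% for Gins2 and 52.5% for Chaf1a, so that their counts may be incomplete or mixed. The Pcna pseudogenes took few reads, with at most 59 counts in a library against at least 5555 for Pcna.

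**Figure D1:**
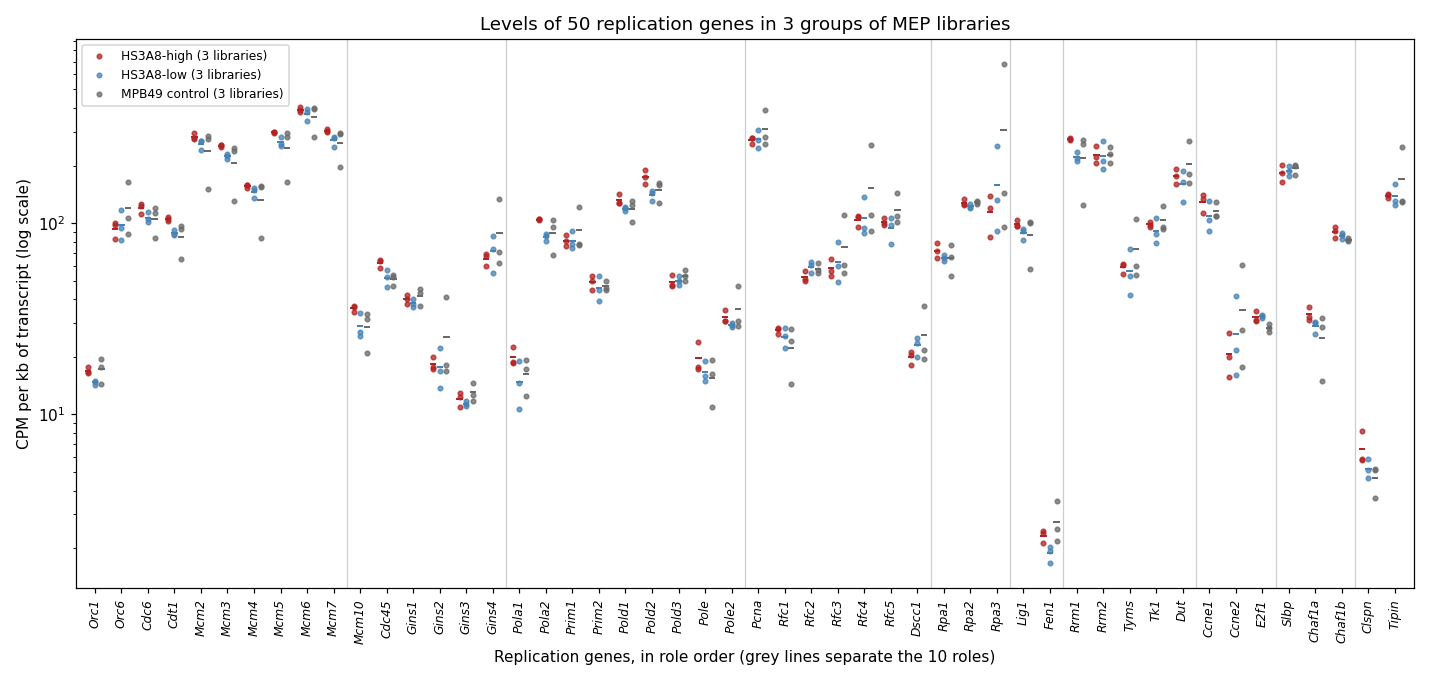
Level of each of the 50 replication genes as CPM per kb of transcript (log scale) in the 9 libraries, with a point per library, a bar at the mean of each group of 3, and genes ordered by role. Groups sit close together within a gene while genes differ widely, from 2.31 CPM per kb for Fen1 to 374 for Mcm6, and the control point far above or below its neighbours in many genes is replicate 1.

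HS3A8-high and HS3A8-low MEPs were compared to see whether the replication program differs between cells of high and low binding. None of the 50 members passed an adjusted p of 0.05 in edgeR's quasi-likelihood test with Benjamini-Hochberg adjustment, where 451 of 11791 genes did (3.82%). At an unadjusted p under 0.05 there were 6 of 50 members, 5 higher in HS3A8-high and 1 lower, against 19.8% of all genes. The DESeq2 test called 2 members, Rrm1 and Pola2 (8.87% of all genes), and voom with sample quality weights called 4, Rrm1, Pola2, Pold2 and Mcm10 (12.6%). All of these were higher in HS3A8-high. The median log2 fold change of HS3A8-high over HS3A8-low was 0.08 for the members and -0.03 for all genes, and it was positive for 35 members and negative for 15.

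Fold changes were small. They ran from -0.51 (Rpa3) to 0.40 (Pola1) on the log2 scale, and 49 members stayed within 0.5 in either direction. The 95% confidence interval lay within 1 log2 unit of 0 for 48 members and within 0.5 for 39, with a median half-width of 0.248, so that a change of more than 2-fold lies outside the interval of all but Rpa3 and Ccne2. For 12 members every HS3A8-high library was above every HS3A8-low library, against 12.1% of all genes, and for 1 member every one was below, against 15.7%. These counts use CPM scaled within the 6 libraries. With CPM scaled over all 9 libraries, as printed for single genes, they were 17 members higher (15.2% of all genes) and 0 lower (14.3%). Without both libraries numbered 3, in which granulocyte and monocyte transcripts were high in both fractions, they were 22 higher (21.6%) and 3 lower (28%). The list as a whole was not tested.

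Same-numbered libraries of the fractions departed from their group means in the same genes, so the comparison was repeated with the replicate number as a block. Then 3 members passed, all higher in HS3A8-high, where 3.32% of all genes did, and 0 were lower, where 8.27% of all genes were. They were Rrm1, Pold2 and Pola2.

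**Figure D2:**
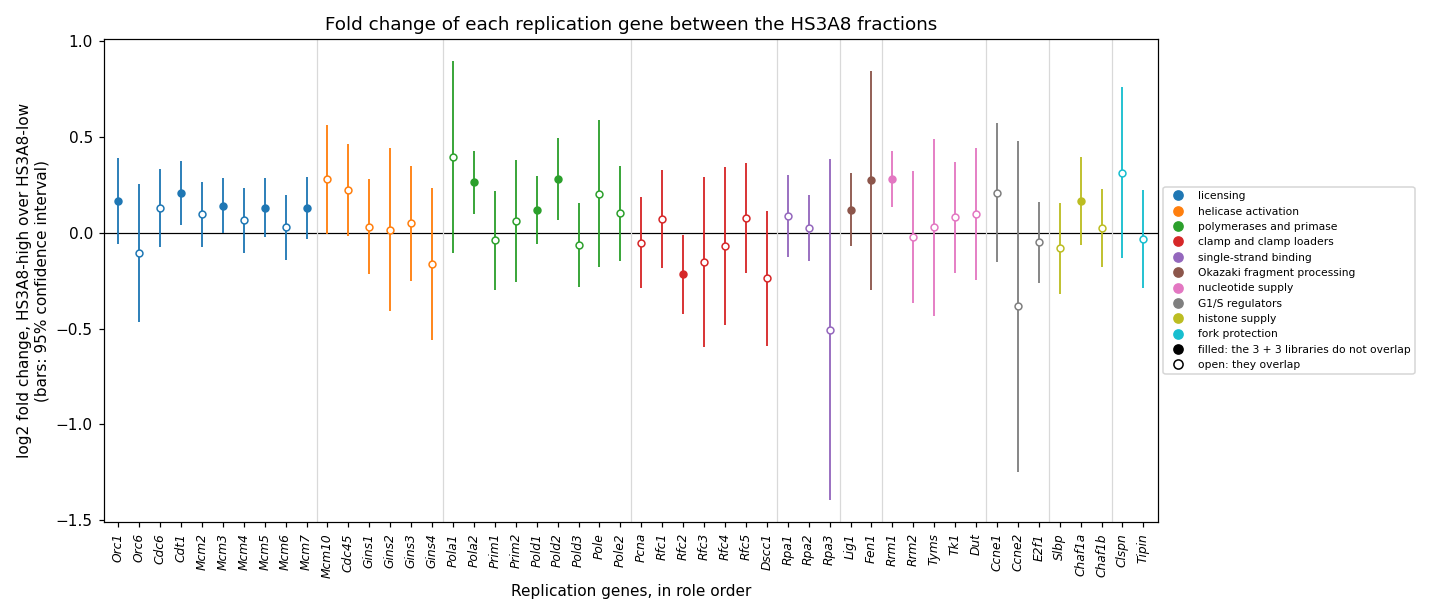
Log2 fold change of HS3A8-high over HS3A8-low for the 50 replication genes, with 95% confidence intervals, coloured by role. Filled points mark genes whose 3 HS3A8-high and 3 HS3A8-low libraries do not overlap when scaled within the 6, which are 12 higher and 1 lower (Rfc2), and the widest intervals are those of Rpa3 and Ccne2.

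Rrm1 (chr7:102441695-102469771, GRCm38), the large subunit of ribonucleotide reductase, which makes deoxynucleotides, stood at 1116, 1101 and 1089.7 CPM in HS3A8-high, at 841, 941 and 872 CPM in HS3A8-low and at 499.7, 1034 and 1083 CPM in the control. The fractions did not overlap, and control replicate 1 lay below every other library. Its log2 fold change of HS3A8-high over HS3A8-low was 0.28 (SE 0.0623), with an adjusted p of 0.059 in edgeR's test and 0.0345 with the block. The small subunit Rrm2 had a log2 fold change of -0.02 and an interval from -0.36 to 0.32. The other nucleotide genes, Tyms, Tk1 and Dut, which act in thymidylate synthesis, had log2 fold changes of 0.03, 0.08 and 0.10, and their libraries overlapped.

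Of the polymerase genes, Pola2 (chr19:5940542-5964202), the regulatory subunit of polymerase alpha, had 253, 253 and 252 CPM in HS3A8-high, 208, 211 and 196 CPM in HS3A8-low and 164, 251 and 230.3 CPM in the control. The HS3A8-high values were nearly the same and all above HS3A8-low. The log2 fold change was 0.26 (SE 0.0699), with an adjusted p of 0.0925 in edgeR's test and 0.0499 with the block. Pold2 (chr11:5872180-5878292), an accessory subunit of polymerase delta, had 264, 310.5 and 287 CPM in HS3A8-high, 214, 236 and 241 CPM in HS3A8-low and 210.5, 261 and 266 CPM in the control. Again the fractions did not overlap, at a log2 fold change of 0.28 (SE 0.0902) and an adjusted p of 0.145 by edgeR without and 0.0471 with the block.

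Pola1, the catalytic partner of Pola2, had the highest fold change of all members but did not pass. Its libraries held 120.4, 99.1 and 101 CPM in HS3A8-high, 102, 78.1 and 56.7 CPM in HS3A8-low and 66.3, 103 and 92.6 CPM in the control. HS3A8-low replicate 1 lay above HS3A8-high replicates 2 and 3, and the log2 fold change of 0.40 had an interval from -0.10 to 0.90 (edgeR adjusted p = 0.36). Leaving out HS3A8-low replicate 1 gave 0.64, and leaving out HS3A8-low replicate 3 gave 0.21. Of the 9 polymerase and primase genes, 7 had a positive and 2 a negative log2 fold change, with a median of 0.12.

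Among the 10 licensing genes, 9 had a positive log2 fold change, with a median of 0.13 and a range from -0.10 (Orc6) to 0.21 (Cdt1). None passed the test with or without the block. Mcm6, the ring subunit with the highest level per kb, had 1131, 1108 and 1173 CPM in HS3A8-high, 1156, 1104 and 998 CPM in HS3A8-low and 821, 1153 and 1162 CPM in the control. Its fractions overlapped, with a log2 fold change of 0.03 and an interval from -0.14 to 0.20. For Orc1, Cdt1, Mcm3, Mcm5 and Mcm7 the fractions did not overlap on either scale, with log2 fold changes of 0.17, 0.21, 0.14, 0.13 and 0.13. Mcm2 and Mcm4 did not overlap when scaled over 9 libraries but did when scaled within the 6, with log2 fold changes of 0.10 and 0.06.

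Of the 6 helicase activation genes, 5 had a positive and 1 a negative log2 fold change, with a median of 0.04. Mcm10, which helps to start the activated helicase, had 180.4, 168 and 176 CPM in HS3A8-high, 132, 125 and 164 CPM in HS3A8-low and 102, 154 and 163 CPM in the control. The fractions did not overlap on this scale but did when scaled within the 6 libraries, and the log2 fold change was 0.28 (SE 0.121, edgeR adjusted p = 0.263). Gins4, a GINS subunit, had 80.4, 90.4 and 92.8 CPM in HS3A8-high, 73.8, 98.6 and 115 CPM in HS3A8-low and 180.0, 83.5 and 94.9 CPM in the control. Its fractions overlapped, with a log2 fold change of -0.16 and an interval from -0.56 to 0.24.

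Clamp and clamp loader genes had a median log2 fold change of -0.07, with 2 positive and 5 negative of 7. Pcna had 392, 424 and 425 CPM in HS3A8-high, 374, 411 and 468 CPM in HS3A8-low and 594, 395 and 429 CPM in the control. The fractions overlapped, with a log2 fold change of -0.05 and an interval from -0.29 to 0.19. Rfc2, a subunit of the main clamp loader, had 249.8, 279.8 and 254 CPM in HS3A8-high, 274, 300.2 and 314 CPM in HS3A8-low and 308, 284 and 273 CPM in the control. It was the member at the lower side without overlap when scaled within the 6 libraries, though not on this scale, and its log2 fold change of -0.22 (SE 0.0863) had an adjusted p of 0.226 by edgeR. Dscc1, of the alternative loader that acts in sister chromatid cohesion, had 28.2, 24.0 and 27.0 CPM in HS3A8-high, 31.3, 26.5 and 33.2 CPM in HS3A8-low and 49.1, 25.8 and 28.6 CPM in the control, with overlapping fractions. Its log2 fold change was -0.24, with an interval from -0.59 to 0.12.

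The largest negative values rested on 1 library. Rpa3, the smallest subunit of the single-strand binding complex RPA, had 56.5, 93.1 and 80.7 CPM in HS3A8-high, 60.8, 88.8 and 169 CPM in HS3A8-low and 456, 64.1 and 96.6 CPM in the control. HS3A8-low replicate 3 and control replicate 1 were the high ones, and the other 7 libraries lay between 56.5 and 96.6 CPM. Its log2 fold change of -0.51 had an interval from -1.40 to 0.38 and became 0.01 without HS3A8-low replicate 3. The other RPA subunits, Rpa1 and Rpa2, had log2 fold changes of 0.09 and 0.03.

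Ccne2, 1 of the E-type cyclins that start S phase, showed the same libraries high, with 47.0, 60.0 and 80.1 CPM in HS3A8-high, 48.5, 64.9 and 124 CPM in HS3A8-low and 182, 52.9 and 82.8 CPM in the control. Its log2 fold change of -0.38 (interval from -1.25 to 0.48) became 0.11 without HS3A8-low replicate 3. Its relative Ccne1 had 226, 268 and 280.2 CPM in HS3A8-high, 182, 209 and 262 CPM in HS3A8-low and 217, 218 and 259 CPM in the control. Here the fractions overlapped with a log2 fold change of 0.21 (interval from -0.15 to 0.57). E2f1, a transcription factor of this step, had a log2 fold change of -0.05.

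In the remaining roles no member passed. Lig1, the ligase that seals Okazaki fragments, had 306, 307 and 328 CPM in HS3A8-high, 296, 288 and 260.1 CPM in HS3A8-low and 183, 316 and 324 CPM in the control. Its fractions did not overlap, at a log2 fold change of 0.12 and an interval from -0.07 to 0.31. Slbp, which binds the stem-loop of histone mRNA, had 311, 348 and 382 CPM in HS3A8-high, 335, 358 and 381 CPM in HS3A8-low and 386, 341 and 380.4 CPM in the control, with overlap and a log2 fold change of -0.08 (interval from -0.32 to 0.15). The chromatin assembly genes Chaf1a and Chaf1b had log2 fold changes of 0.17 and 0.02. Clspn had 41.4, 29.2 and 29.2 CPM in HS3A8-high, 29.2, 23.3 and 25.8 CPM in HS3A8-low and 18.4, 25.9 and 26.1 CPM in the control. The fractions overlapped, the high value was that of HS3A8-high replicate 1, and the log2 fold change of 0.31 had an interval from -0.13 to 0.76 and became 0.13 without that library. Tipin, a partner in fork protection, had 261, 257 and 250 CPM in HS3A8-high, 230.4, 241 and 294 CPM in HS3A8-low and 462, 238 and 240.1 CPM in the control, with overlap and a log2 fold change of -0.03 (interval from -0.29 to 0.23).

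No replication gene was called between either fraction and the MPB49 control. In HS3A8-high over the control, edgeR called 0 members and 2 of 11486 genes (0.0174%), and in HS3A8-low over the control it called 0 members and 0 of 11878 genes (0%). At an unadjusted p under 0.05 there were 0 members in both, against 4.89% of all genes in the first and 5.67% in the second. DESeq2 also called 0 members in both, against 1.06% and 0.672% of all genes, and voom called 0, against 0.871% and 2.42%. The median log2 fold change of the members was 0.02 in HS3A8-high over the control and -0.09 in HS3A8-low over the control, with -0.00 for all genes in each. These comparisons share their control libraries and are given side by side. Single members ranged from -1.44 (Rpa3) to 0.49 (Clspn) in the first and from -0.996 (Rpa3) to 0.19 (Chaf1a) in the second. With CPM scaled within the 6 libraries of a comparison, 7 members of HS3A8-high were above every control library (6.77% of all genes) and 0 below (7.19%). In HS3A8-low, 1 member was above (7.91%) and 2 were below (4.92%), the latter Gins3 and Fen1. Leaving out control replicate 1 on this scale, HS3A8-high had 8 members above (9.72%) and 0 below (11.3%), and HS3A8-low had 1 above (14.5%) and 12 below (14.9%). With CPM scaled over all 9 libraries and every library kept, Mcm5, Mcm7 and Pola2 of HS3A8-high were also above every control library. In HS3A8-low, Rpa2 was then also below. Shares of all genes were not computed on that scale, so no count is read from it.

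Control replicate 1 stood apart in the replication genes. It was the highest or the lowest of the 9 libraries for 40 of the 50 members, 20 each way, against 60.8% of 12108 expressed genes. Its quartiles of deviation (log2 CPM minus the mean of the gene over the 9 libraries) were -0.48 and 0.52 over the members. Over the 12108 expressed genes they were -0.51 and 0.51, so this spread was not particular to the members. The sign went with transcript length, and the median deviation was -0.55 for the 20 members over 3 kb and 0.55 for the 18 members under 2 kb. Across the 50 members, the correlation of deviation with log2 transcript length was r = -0.66 in control replicate 1 and -0.50 in HS3A8-low replicate 3, and it was positive in the other 7, from 0.23 (control replicate 3) to 0.63 (control replicate 2) and 0.67 (HS3A8-high replicate 1). Over all 12055 genes with a length it was -0.48 in control replicate 1, -0.17 in HS3A8-low replicate 3 and 0.29 in HS3A8-high replicate 1. It was 0.36 in HS3A8-low replicate 1 and 0.25 in control replicate 2. In the remaining libraries it was near 0, from -0.006 (HS3A8-high replicate 2) to 0.07 (control replicate 3), while it was positive for the members. Spearman's rank correlation over all genes ran there from -0.02 (HS3A8-high replicate 2) to 0.16 (control replicate 3), against 0.30 to 0.42 for the members. In HS3A8-low replicate 3 the rank correlation was -0.28 over all genes and -0.47 for the members. These correlations are over genes of 1 library each, which share its preparation and are not replicates.

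**Figure D3:**
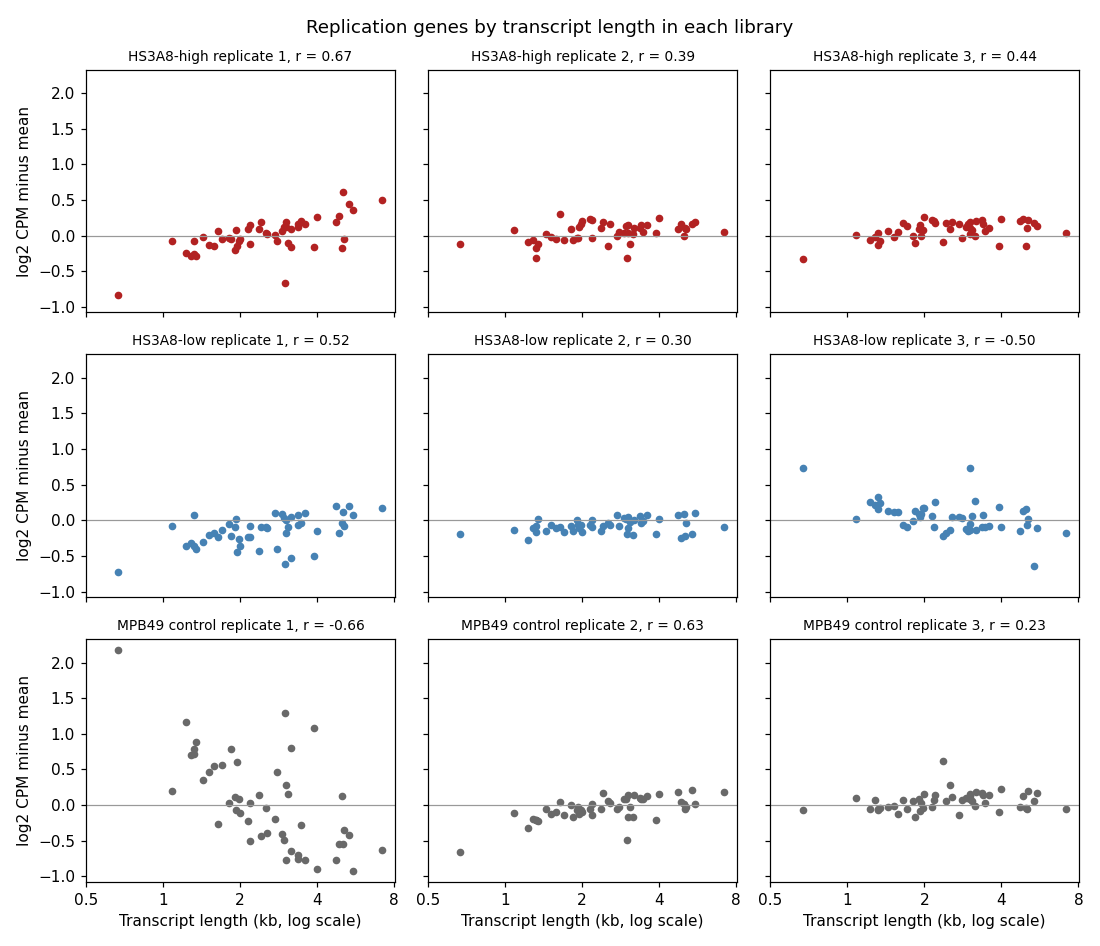
Deviation of each replication gene (log2 CPM minus its mean over 9 libraries) against transcript length in kb (log scale), with a panel per library and a point per gene. Points fall with length in control replicate 1 (r = -0.66) and in HS3A8-low replicate 3 (r = -0.50) and rise in the other 7 libraries (r from 0.23 to 0.67).

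The shortest member, Rpa3, with a transcript of 670 bases, was at 456 CPM in control replicate 1. The ring subunits, with longer transcripts, were lowest there, as in Mcm2 with 509 CPM against 927 and 968 CPM in the other control libraries and Mcm3 with 396 CPM against 749 and 721 CPM. With each library's length trend removed, an alternative chosen after these values were seen, edgeR called 2 members between the HS3A8 fractions, Pola2 and Pold2, where 6.96% of all genes were called, and the median log2 fold change of the members was 0.07.

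**Figure D4:**
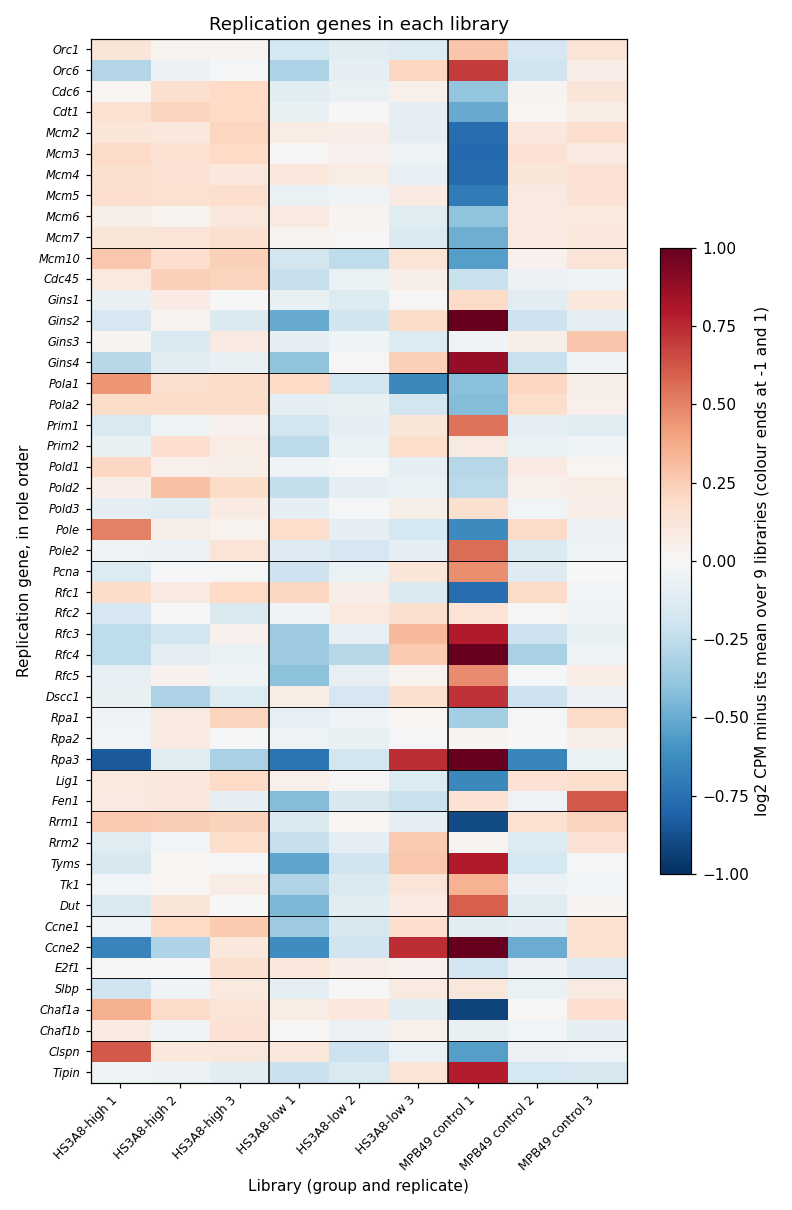
Deviation of the 50 replication genes (log2 CPM minus its mean over 9 libraries, colour) in each library, with genes ordered by role and black lines between groups and roles. Control replicate 1 holds the strongest colours, 20 genes at their highest and 20 at their lowest, while the HS3A8-high columns are mostly pale red for the ring subunits.

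The replication genes can be set beside 2 further lists, which were also chosen with earlier results of these data known. For 59 other replication genes the median log2 fold change of HS3A8-high over HS3A8-low was 0.09, with 42 positive and 17 negative. EdgeR called 0 of them, 11 had an unadjusted p under 0.05 (10 higher and 1 lower), against 19.8% of all genes, and with the block 2 were called, both higher, against 3.32% of all genes. These were Ccna2, a cyclin of S phase and mitosis, and Rbbp7, a histone chaperone. For 25 mitosis genes the median was 0.41 and all 25 were positive. With the block 16 of them were called, all higher, against 3.32% of all genes. Without the block edgeR called 7 as higher, where 0.611% of all genes were. These 7 were Ube2c, Plk1, Kif18b, Ccnb1, Hmmr, Bub1b and Cdc20, with log2 fold changes from 0.44 (Cdc20) to 0.70 (Ube2c). No test compared the lists with each other.

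**Figure D5:**
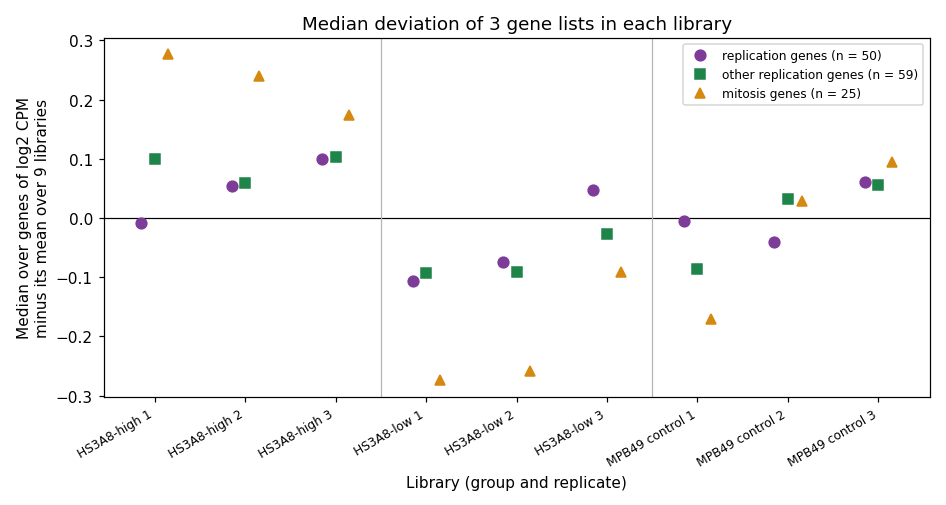
Median deviation (log2 CPM minus its mean over 9 libraries) of the 50 replication genes, 59 other replication genes and 25 mitosis genes in each library. Mitosis genes lie at 0.17 to 0.28 in HS3A8-high and at -0.27 to -0.09 in HS3A8-low, while the replication genes lie at -0.01 to 0.10 and at -0.11 to 0.05.

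Markers of the cell types that the gate could hold differed between the fractions beside these values. All 8 erythroid markers were detected in every library. Gata1, Klf1, Epor, Tfrc and Car1 were higher in HS3A8-high without overlap of the fractions, while Hba-a1, Hbb-bt and Alas2 overlapped. Car1 gave most of the sum, with 5367 to 5798 CPM in HS3A8-high and 4060 to 4519 CPM in HS3A8-low. The summed level of the 8 erythroid markers was 7623 to 8194 CPM in HS3A8-high, 5818 to 6515 CPM in HS3A8-low and 6857 to 7482 CPM in the control. Summed megakaryocyte markers (8 genes) were at 32.0 to 50.8, 198 to 418 and 146 to 231 CPM, and those of stem and multipotent progenitors (8 genes) at 17.0 to 32.7, 175 to 207 and 75.4 to 137 CPM. Granulocyte and monocyte markers (13 genes) were at 9.77 and 19.5 CPM in HS3A8-high replicates 2 and 1 and at 1925 CPM in replicate 3, and at 116, 251 and 4892 CPM in HS3A8-low replicates 1 to 3. Mpo, a defining gene of that lineage, reached 712 and 1597 CPM in the libraries numbered 3. Summed T and NK cell markers (7 genes) were at 4.27 to 28.6, 168 to 217 and 50.9 to 100.1 CPM, mostly from Nkg7, Tcf7 and Trbc1, while the defining T cell gene Cd3e was at 0 to 1.70 CPM. Basophil and mast cell markers (6 genes) were at 1.27 to 68.0, 21.8 to 141 and 8.39 to 25.1 CPM. B cell markers (6 genes) were at 1.37 to 4.76, 9.66 to 13.5 and 4.16 to 9.65 CPM, with Pax5, a defining B cell gene, at 0 in all 9. The part of these cells in the values of the replication genes was not tested.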

How the data were processed

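Bulk RNA-seq counts of 9 libraries were used as deposited. Per the labels, the authors made raw, unnormalized read counts for each gene, with no pooling of libraries, and the submitters' processing notes name mm10, STAR 2.5 and HTSeq 0.6.1. Annotation release and strand setting of the counting are not given in the sources used here. Of 35275 identifiers, 34490 matched symbols in GENCODE M21 on GRCm38, and 0 columns were left unused. The members and lists were chosen with earlier results of these data known.

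Each comparison was fitted over its own 6 libraries in R 4.3.3 with edgeR 4.0.16 (TMM, filterByExpr, quasi-likelihood test, Benjamini-Hochberg over all genes tested, adjusted p under 0.05). Alternatives used DESeq2 1.42.0 and voom of limma 3.58.1. Deviations used log2 CPM with a prior count of 2, and length is that of the longest principal transcript. Same-numbered HS3A8-high and HS3A8-low libraries deviated together over 11791 genes (r = 0.517, 0.345 and 0.514, against -0.48 to 0.11 for other pairs), which is the basis of the pairing, as the labels do not state one. With the control, same-numbered libraries did not (r from -0.36 to 0.02).

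Members given in full are those called between the fractions with or without the block, the 5 highest and 5 lowest fold changes, and the highest level per kb in each role. Other members are named after their values were seen. EdgeR's fits with and without the block were run on simulated counts. These counts held no replicate effect and no length trend, so how the fits handle either was not tested. Intervals cover the spread between libraries.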

Additional observations from a re-analysis of the deposited data

How the results depend on the processing

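Between HS3A8-high and HS3A8-low, the number of members called was 0 in the main test and also with DESeq2 size factors, without a filter, with a mean count of at least 10, with all 9 libraries in 1 fit and with any 1 library left out. It was 2 in the DESeq2 test, 3 with the replicate block that pairs libraries of the same number, and 4 with voom and sample quality weights. Of the alternatives chosen after seeing the data, removing the transcript length trend gave 2 (6.96% of all genes), the replicate block with that removal gave 5 (Rrm1, Pola2, Pold2, Ccne1 and Cdc45, 14.6% of all genes), and leaving out both libraries numbered 3 gave 0. The median log2 fold change of the members stayed positive, from 0.06 to 0.12. Against the control, 0 members were called under every alternative run, the replicate block included. The median of HS3A8-high over the control, 0.02, was 0.0885 with the length trend removed, 0.0908 with the replicate block and that removal, and -0.0156 to 0.0831 with 1 library left out. That of HS3A8-low over the control, -0.09, was -0.036 without HS3A8-low replicate 1, -0.13 without HS3A8-low replicate 3 and -0.036 with the length trend removed.

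Among 272 results of named genes under an alternative, 246 kept direction and side of the threshold, 15 newly passed it and 11 changed sign, none of them past the threshold. Tipin became 0.0394 with voom, 0.0013 with the block and the length removal, and 0.12 without the libraries numbered 3. Without the latter Mcm6 became -0.0306 and Pcna 0.0408. With 1 library left out the log2 fold change ran from -0.76 to 0.0094 for Rpa3, -0.62 to 0.11 for Ccne2, -0.30 to 0.00058 for Gins4, -0.019 to 0.0946 for Mcm6, -0.11 to 0.0487 for Pcna and -0.0808 to 0.0919 for Tipin, each changing sign without HS3A8-low replicate 3. The cause was not tested. Over all genes, the number called ran from 0 (without HS3A8-low replicate 2) to 439 with 1 library left out. With 3 libraries a group, the median interval reaches 0.248 log2 units to either side, so smaller changes were not detectable for a member of that precision. The intervals are not adjusted for the number of genes tested, so a call at an adjusted p under 0.05 needed a larger change. Rrm1 (0.28), Pold2 (0.28), Pola2 (0.26), Cdt1 (0.21), Mcm3 (0.14) and Rfc2 (-0.22) had intervals without 0 but were not called in the main test.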

Other observations

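The ring subunits and Rrm1 had the highest mean CPM of the 50 replication genes. The summed level of all 50 was 13943 to 14565 CPM in HS3A8-high, 12604 to 13545 CPM in HS3A8-low and 12473 to 14220 CPM in the control. The sums of the HS3A8-high libraries lay above those of HS3A8-low, while the control spanned both. For the 59 other replication genes the sums were 9163 to 9235, 8084 to 8550 and 8746 to 9065 CPM in the same order. For the 25 mitosis genes they were 4969 to 5227, 3546 to 4091 and 4237 to 4667 CPM. In each of these further lists no 2 groups overlapped. These sums were not tested.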
